A study of Mus musculus with 2 samples.

Results

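The Hox cluster miRNAs described here are Mir10a, Mir10b, Mir196a-1, Mir196a-2 and Mir196b, 5 of the 1973 miRNA genes counted. They were picked by gene symbol, and all 5 were found in the counts. Small RNA was sequenced from the midbrain of healthy mouse embryos of strain B6NCrl at 15.5 days, with RNA from males and females pooled and fragments under 30 bases kept. The single group has 2 biological replicates, a pool of 78 embryos (replicate 1) and a pool of 62 (replicate 2), and no treatment, mutation or other tissue. Levels are in CPM, the reads on the sense strand of a gene scaled to a common total of sense reads over all miRNA genes. Sense reads numbered 3429704 in replicate 1 and 5752476 in replicate 2.

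A miRNA is cut from a hairpin transcript into a 5p and a 3p arm, and pairs with target mRNAs mainly through its seed, bases 2 to 8. The genes of the Hox clusters pattern the embryo from head to tail, and their order along the chromosome matches the order of their borders in the body. In the neural tube, Hox expression is known from the hindbrain backwards and not from the midbrain. The Mir10 genes lie beside the group of Hoxb4 and Hoxd4, whose neural border is in the hindbrain. The Mir196 genes lie among the group of Hoxa9 and Hoxa10, active in the trunk, and miR-196 is known for cutting the mRNA of Hoxb8. Mir10 genes are also transcribed in endothelial and other mesodermal cells of the body.

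The 5p arms are shown first because they decide which of these genes a read can be told apart by. Sequences are from RefSeq (GRCm38.p6), which held all 5 genes, with the seed in capitals.
miR-10a-5p: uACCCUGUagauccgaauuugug
miR-10b-5p: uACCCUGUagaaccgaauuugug
miR-196a-5p: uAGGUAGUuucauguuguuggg
miR-196b-5p: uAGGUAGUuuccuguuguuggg
miR-10a-5p and miR-10b-5p have 23 bases each, share the seed ACCCUGU and differ by 1 substitution, U12A, counted from 1 at the 5′ end of miR-10a-5p. miR-196a-5p and miR-196b-5p have 22 bases each, share the seed AGGUAGU and differ by 1 substitution at the same position, A12C, read in the same way. No other mature mouse miRNA of the RefSeq table has either seed.

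Mir196a-1 and Mir196a-2 both give miR-196a-5p, letter for letter. The mature miR-10a-5p, miR-10b-5p and miR-196b-5p each occur in 1 annotated miRNA transcript (GENCODE M21), and miR-196a-5p in 2. The hairpins of the Mir196a copies are shown with both mature arms in capitals, since the arms differ in how far they separate the copies.
Mir196a-1: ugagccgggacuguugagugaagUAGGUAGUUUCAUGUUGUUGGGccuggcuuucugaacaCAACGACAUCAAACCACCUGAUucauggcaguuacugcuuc
Mir196a-2: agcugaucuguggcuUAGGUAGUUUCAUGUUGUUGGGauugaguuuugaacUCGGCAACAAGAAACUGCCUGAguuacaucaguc
Outside the 5p arm the copies part company: their 3p arms differ at 17 of 22 positions. Of the windows of 20 bases, 3 of 83 in Mir196a-1 and 3 of 66 in Mir196a-2 occur in the other copy, and no window of Mir10a, Mir10b or Mir196b occurs in another miRNA transcript. The deposited files tally reads with several mapping places apart from genes, and these were 37.7% of listed reads in replicate 1 and 35.8% in replicate 2. A full-length miR-196a-5p read fits both copies, so the counts of Mir196a-1 and Mir196a-2 say little about the level of miR-196a-5p.

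In the genome (mm10) the members lie in 4 Hox clusters. Mir10a is on chromosome 11 at 96317165 to 96317274, plus strand, inside no other annotated gene, 1496 bases before the coding part of Hoxb4 and 12031 bases after that of Hoxb5. Mir10b is on chromosome 2 at 74726070 to 74726137, plus strand, in introns of Hoxd4 and of a long transcript of Hoxd3, 1142 bases before the coding part of Hoxd4. Mir196b is on chromosome 6 at 52230081 to 52230165, minus strand, in an exon of a Hoxa9 transcript and between the coding parts of Hoxa10 (2344 bases) and Hoxa9 (3977 bases). Mir196a-2 is on chromosome 15 at 102973350 to 102973434, plus strand, in an intron of a long Hoxc5 transcript, with the coding part of Hoxc10 ending 2278 bases before it and that of Hoxc9 starting 8219 bases after it. Mir196a-1 is on chromosome 11 at 96265164 to 96265265, plus strand, inside no other annotated gene and 6277 bases before the coding part of Hoxb9. Mir615, a miRNA of the Hoxc cluster that is no member, lies in an intron of Hoxc5 and is given for comparison.

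**Figure D1:**
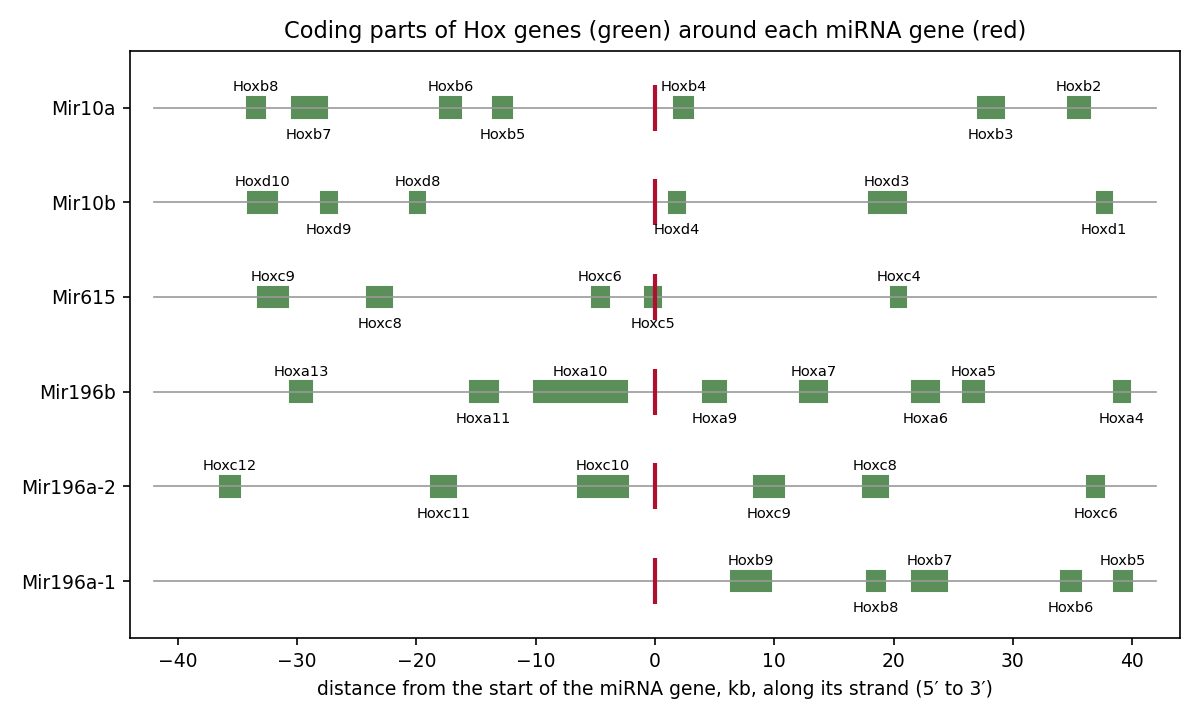
Position of each miRNA gene (red tick at 0) among the coding parts of Hox genes (green boxes, GENCODE M21), with distance from the start of the miRNA gene in kb along its strand on the x axis and 1 row per miRNA. Mir10a and Mir10b sit just before Hoxb4 and Hoxd4, Mir615 sits in Hoxc5, and Mir196b and Mir196a-2 sit between genes numbered 10 and 9. Hox genes farther away are not drawn.

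Mir10a was the highest of the members, with 2227 reads in replicate 1 and 5277 in replicate 2. Its level was 649 CPM (95% exact interval 623 to 677) and 917 CPM (893 to 942), a mean of 783 ± 190 CPM (SD, n = 2), which placed it 109th and 93rd among all genes. Mir10b followed with 1163 and 3062 reads, 339 CPM (320 to 359) and 532 CPM (514 to 551), a mean of 436 ± 137 CPM (SD, n = 2). Replicate 2 was the higher library for both genes. The intervals given with these levels cover counting error only, since each comes from a single library. They also treat reads as independent, and reads are not independent molecules.

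Mir196b, the Hoxa member, had 67 and 177 reads, or 19.5 CPM (15.1 to 24.8) and 30.8 CPM (26.4 to 35.7), a mean of 25.2 ± 7.94 CPM (SD, n = 2). Mir196a-2 had 1 read in replicate 1 and 6 in replicate 2, or 0.292 CPM (0.00738 to 1.62) and 1.04 CPM (0.383 to 2.27). Mir196a-1 had 0 reads in both, which allows up to 0.875 CPM in replicate 1 and 0.522 CPM in replicate 2 at a limit of 3 counts, for reads given to that gene alone. Both Mir196a copies were thus below that limit in replicate 1. In replicate 2 Mir196a-2 was above it with 6 reads, and Mir196a-1 was below it. The copies were not compared by a test. Of the 5 members, 3 had 1 CPM or more in each library, as did 443 of all 1973 genes.

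**Figure D2:**
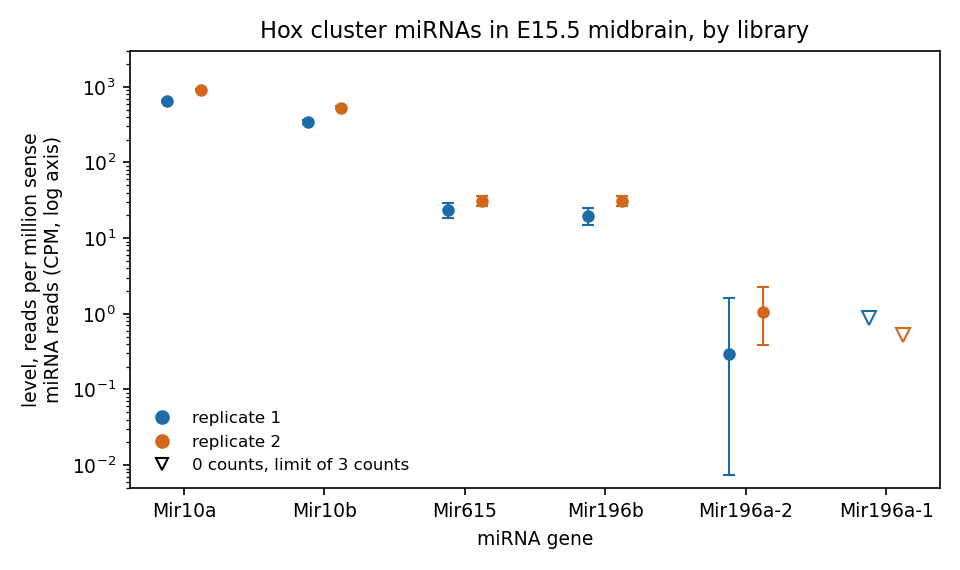
Level of each Hox cluster miRNA gene in CPM (y axis, log scale) in replicate 1 (blue) and replicate 2 (orange), with 95% exact counting intervals as bars and, for genes with 0 reads, the limit of 3 counts as an open triangle. Both Mir10 genes lie between 339 and 917 CPM, Mir615 and Mir196b lie between 19.5 and 31.3 CPM, and both Mir196a copies lie near 1 CPM or below.

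The Mir10 genes made up nearly all of the members' reads. Together the 5 genes held 3458 reads in replicate 1, or 0.101% of sense reads (95% exact interval 0.0975 to 0.104), and 8522 in replicate 2, or 0.148% (0.145 to 0.151). Of these reads Mir10a held 64.4% and 61.9%, Mir10b 33.6% and 35.9%, and Mir196b 1.94% and 2.08%.

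Levels of different members were compared within a library, where scaling cancels. Mature arms are nearly equal in length, so reads were not divided by gene length. Mir10a had 1.91 times the reads of Mir10b in replicate 1 (95% exact interval 1.78 to 2.06) and 1.72 times in replicate 2 (1.65 to 1.80). Mir10a had 33.2 times the reads of Mir196b in replicate 1 (26.1 to 43.0) and 29.8 times in replicate 2 (25.7 to 34.8). Mir10b had 17.4 times (13.6 to 22.6) and 17.3 times (14.9 to 20.2) the reads of Mir196b. The order Mir10a, Mir10b, Mir196b was the same in both libraries, with every interval above equality. A bias of ligation or amplification that both libraries share would not show in these intervals and was not tested.

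The ratios among the 3 members with reads enough to compare moved less between the libraries than the members' summed level, which was 1.44 times higher in replicate 2. The ratio of Mir10b to Mir196b in replicate 2 was 0.997 times that in replicate 1 (95% exact interval of the odds ratio 0.735 to 1.34). That of Mir10a to Mir196b was 0.897 times (0.664 to 1.20). That of Mir10a to Mir10b was 0.900 times (0.827 to 0.979), so Mir10b gained slightly on Mir10a in replicate 2 beyond counting error. The intervals of both ratios to Mir196b are wide because it had few reads, and a change within those bounds was not detectable at this depth.

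Mir615, processed from an intron of Hoxc5, had 80 and 180 reads, or 23.3 CPM (18.5 to 29.0) and 31.3 CPM (26.9 to 36.2). Mir196b had 0.838 times the reads of Mir615 in replicate 1 (0.596 to 1.17) and 0.983 times in replicate 2 (0.795 to 1.22), so these neighbours in the order of levels did not differ beyond counting error. By position, the genes beside Hoxb4 and Hoxd4 were at 783 and 436 CPM, the gene in Hoxc5 at 27.3 ± 5.63 CPM (SD, n = 2), and the gene between Hoxa10 and Hoxa9 at 25.2 CPM. This order is a description over 4 genes in 1 tissue, and the Mir196a copies cannot be placed in it for the reason given with their sequences.

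Mir10a, Mir10b and Mir196b were each higher in replicate 2 than in replicate 1. With TMM scaling of edgeR the fold was 1.38 for Mir10a (95% counting interval 1.31 to 1.45), 1.53 for Mir10b (1.43 to 1.64) and 1.54 for Mir196b (1.16 to 2.07). On the log2 scale, with 1 CPM added, these are 0.46, 0.62 and 0.60. In the two-sided conditional exact binomial test, adjusted by Benjamini-Hochberg over the 717 genes with a read, the adjusted p was 2.85e-37 for Mir10a, 6.12e-36 for Mir10b and 0.0138 for Mir196b. Mir196a-2, with 7 reads in all, had a log2 ratio of 0.65 and an adjusted p of 0.769 in that exact test. Mir615 had a log2 ratio of 0.38 and an adjusted p of 0.181 in the same exact test. That test compares these libraries, with 1 library per pool, and has no replicate check.

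The members' count of 3 of 5 has to be read against all genes. The same exact binomial test called 19.8% of the 717 genes in either direction and 9.76% higher in replicate 2. Among the 203 genes averaging 100 CPM or more, where calls come easily with depth, 28.1% were higher in replicate 2, and both members at that level (Mir10a and Mir10b) were. By size of the log2 ratio toward replicate 2, Mir10b ranked 1st and Mir10a 2nd of those 203 genes, whose median was -0.0044. Counting both directions, they ranked 2nd and 4th. Mir196b ranked 7th toward replicate 2 of the 308 genes averaging 10 CPM or more. The median log2 ratio of the 3 members of at least 1 CPM was 0.60, beside -0.0023 over the 474 genes of that level.

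The exact binomial test covers counting error only, and no spread between pools can be measured apart from the difference compared. The common biological coefficient of variation that edgeR estimated was 10.2%, from the same 2 libraries, so a test that allows for it makes few calls by construction and does not bear on the size of the folds. With a fixed coefficient of 10%, edgeR's exact test gave adjusted p = 0.830 for Mir10a, 0.275 for Mir10b and 0.916 for Mir196b, and called 0.418% of the genes. Without adjustment the p in that exact test was 0.0254, 0.00346 and 0.0345, and 31 of 717 genes were under 0.05.

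**Figure D3:**
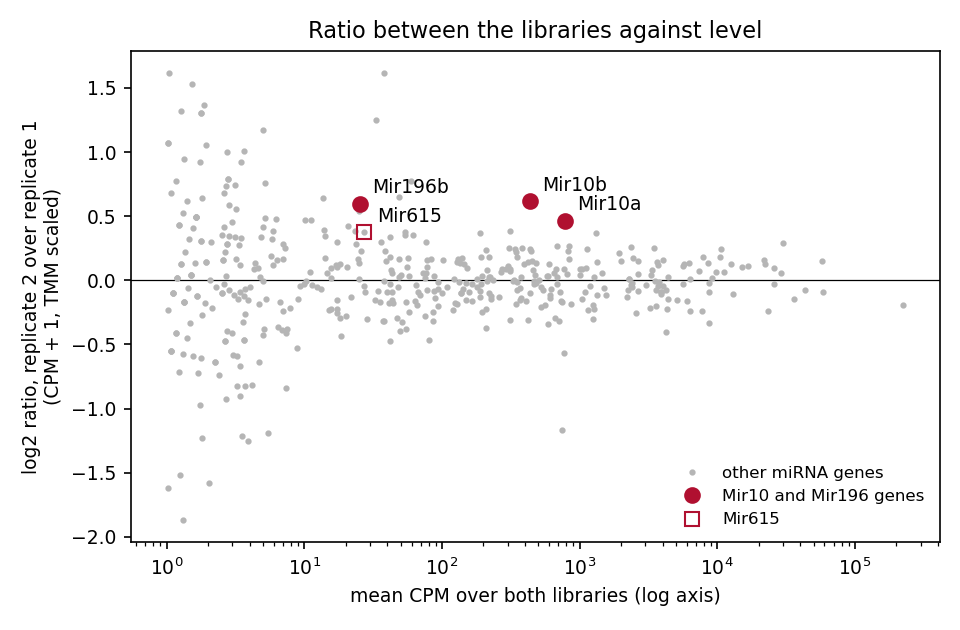
Log2 ratio of replicate 2 over replicate 1 (y axis, TMM scaled, 1 CPM added) against mean CPM (x axis, log scale) for the 474 genes of at least 1 CPM, with Mir10a, Mir10b and Mir196b as red dots and Mir615 as an open square. Mir10b at 0.62 and Mir10a at 0.46 stand above the other genes of at least 100 CPM, while Mir196b at 0.60 lies where the spread of other genes is wider.

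All reads on the members came from the sense strand. Opposite-strand reads were 0 for each of the 5 genes in both libraries, which allows up to 0.135% of the reads of Mir10a in replicate 1 and 0.0569% in replicate 2. For Mir10b the limit was 0.258% and 0.0980%, and for Mir196b, with fewer reads, 4.48% and 1.69%. The Hox clusters carry known antisense transcripts such as Hoxb5os and Hoxd3os1. No annotated gene on the opposite strand overlaps a member, and only fragments under 30 bases were kept. The absence of opposite-strand reads on the members therefore says nothing about such transcripts.

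The closest relatives by sequence, Mir100, Mir99a and Mir99b, were far more abundant and did not rise with the Mir10 genes. They belong to the same family by sequence but have another seed, in capitals.
miR-100-5p: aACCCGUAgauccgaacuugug
miR-99a-5p: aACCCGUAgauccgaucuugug
miR-99b-5p: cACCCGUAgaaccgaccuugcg
miR-10a-5p shares a run of 11 bases with miR-100-5p (GUAGAUCCGAA) and 10 with miR-99a-5p, and miR-10b-5p shares 10 with miR-99b-5p. Mean levels were 55.1 times that of Mir10a for Mir100, 285 times for Mir99a and 33.1 times for Mir99b. Their log2 ratios of replicate 2 over replicate 1 were -0.075 for Mir100, -0.19 for Mir99a and -0.027 for Mir99b, against 0.46 for Mir10a. No window of 20 bases links the hairpins of Mir10a or Mir10b with these relatives.

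The genes nearest to each member in level were sought by the Euclidean distance of log2(CPM + 1) over the 2 libraries. For Mir10a they were Mir128-2 (746 and 917 CPM), Mir1298 (746 and 893 CPM) and Mir132 (777 and 891 CPM). For Mir10b they were Mir375 (392 and 476 CPM), Mir383 (401 and 482 CPM) and Mir3071 (399 and 450 CPM). Each of these 6 genes had a higher CPM in replicate 1 than the member it resembles. That largely follows from the high ratios of Mir10a and Mir10b and is no separate result. Mir196b was nearest to Mir3080 (19.8 and 29.9 CPM), Mir26a-2 and Mir200c. With 2 libraries, likeness is in level and holds no pattern over tissues.

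Markers of the labelled tissue were present. Of 12 markers of neurons and neural progenitors, 11 were matched, and their summed level was 23287 CPM in replicate 1 and 24775 CPM in replicate 2, a fold of 1.04, with neuronal Mir137 at 10800 and 11585 CPM. The copies of Mir124a, a defining neuronal miRNA whose mature form several copies share, were listed at 4.08 CPM or less. No marker here separates midbrain from hindbrain or spinal cord, and fewer cells of a type and less RNA per cell cannot be told apart in bulk tissue. Which cells of the dissected tissue held the Mir10 and Mir196 reads was not tested.

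Marker lists of other tissues moved in both directions beside the members' summed fold of 1.44 (95% counting interval 1.38 to 1.49). Endothelial Mir126a, the marker of a cell type that also makes Mir10, was lower in replicate 2, at 24909 and 21568 CPM (fold 0.846). The list of mural cells, 3 of 3 matched with Mir145b at 0 reads, summed to 6392 and 5868 CPM (fold 0.897), and the mesenchymal list, 5 of 5 matched, to 4006 and 3979 CPM (fold 0.971). The summed folds of these lists were below 1, but endothelium was represented by 1 gene. Log2 ratios within the lists had both signs, such as -0.16 for Mir143 and 0.058 for Mir145a. In the exact binomial test only Mir126a and Mir143 were called, both lower in replicate 2. Mir145a had an adjusted p of 0.921 in that test. The part of vessel and connective tissue in the members' difference was not tested.

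Of the remaining lists, some had a summed fold above 1 and some below 1. The muscle list, 8 of 9 matched, summed to 39.4 and 77.9 CPM (fold 1.93), with Mir208b at 18.95 and 47.6 CPM. Most of that rise was of Mir208b, the only gene of the list called in the exact binomial test. Mir1a-1, Mir133a-1 and Mir133a-2 had 0 reads in both libraries. These are numbered copies, and a read that fits several copies was tallied apart from genes. Their 0 reads therefore say little about the level of their mature miRNAs. Markers of choroid plexus and pigment epithelium, 2 of 2 matched, summed to 1146 and 1511 CPM (fold 1.29). That rise was of Mir204 alone, at a log2 ratio of 0.37, while Mir211 had 16.6 and 14.4 CPM, a log2 ratio of -0.22. The epithelial list, 7 of 7 matched, summed to 657 and 803 CPM (fold 1.19), with Mir205 at 17.8 and 57.9 CPM. Most of that sum was Mir203, at 568 and 635 CPM, a log2 ratio of 0.13. The liver and gut list, 5 of 5 matched, summed to 215 and 236 CPM (fold 1.07). In it Mir122 was higher in replicate 2, at 43.2 and 76.1 CPM, and was the only gene called in the exact binomial test. Uncalled were Mir215 and Mir194-1, with higher CPM in replicate 2 at low levels. Mir192, at 88.6 and 85.7 CPM, and Mir194-2, at 81.1 and 68.1 CPM, had lower CPM there and were not called either. Red blood cells summed to 197 and 208 CPM (fold 1.03). White blood cells and microglia, 3 of 4 matched, had 334 and 319 CPM (fold 0.934), and the sensory list 1856 and 1410 CPM (fold 0.742). The median log2 ratio over list genes of at least 1 CPM was 0.74 for liver and gut, 0.65 for epithelium and 0.62 for muscle. It was 0.10 for red blood cells, 0.075 for choroid plexus, -0.099 for white blood cells and microglia, and -0.37 for sensory cells. The members' median was 0.60 and that of all genes of that level -0.0023. The liver and gut median was that of Mir215, with 7 and 24 reads. The 5 members summed to 1008 and 1481 CPM, and the part of any of these tissues in their difference was not tested.

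**Figure D4:**
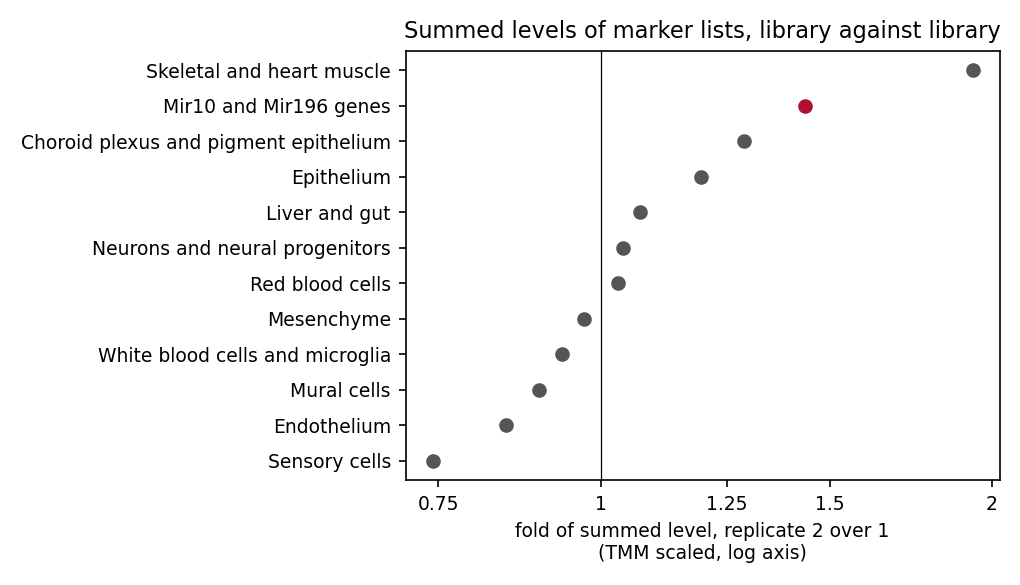
Fold of the summed level in replicate 2 over replicate 1 (x axis, log scale, TMM scaled) for the 5 Mir10 and Mir196 genes (red) and for each marker list (grey), ordered by fold. In summed level the members at 1.44 lie between the muscle list at 1.93 and the choroid plexus list at 1.29. The endothelial marker at 0.846 lies below 1. By median log2 ratio, which is not drawn, the order differs. Liver and gut (0.74), epithelium (0.65) and muscle (0.62) are then above the members (0.60), and choroid plexus (0.075) is below.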

How the data were processed

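The authors deposited, for each library, raw read counts per miRNA gene in 3 columns (without regard to strand, sense strand, opposite strand). Per the file headers of the deposited readme, the build was mm10 with GENCODE M4. Which aligner and counter made them is not given in the sources used here, and the row names are those of STAR's gene counts. Rows naming no gene (unmapped 13.4% and 16.9%, several places 37.7% and 35.8%, outside genes 3.57% and 3.43%, ambiguous 0%) were left out of library sizes and tests.

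Of 1973 identifiers, 1894 matched GENCODE M21 symbols. The sense column was used, as CPM. Ratios used TMM factors (edgeR 4.0.16, R 4.3.3), with 1 CPM added before log2. They were tested by a two-sided exact binomial test (SciPy 1.17.1) with Benjamini-Hochberg adjustment and a threshold of 0.05. That test was tried on simulated counts with counting error only and no spread between pools, and was scored on genes with many reads. Intervals are exact at 95%. Sequences came from RefSeq (GRCm38.p6), positions from M21. Alternatives were other scalings (DESeq2 1.42.0 size factors, upper quartile, total counts), pseudocounts of 0.1 and 10, filters, denominators, detection limits, the unstranded column, edgeR's exact test with fixed coefficients of variation, and leaving out each replicate.

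All members were to be named, with Mir615, Mir99a, Mir99b, Mir100, genes of equal seed, and the 3 genes nearest in level to each member with at least 10 reads in both libraries. Marker genes named are examples from their lists. Members, lists and tests were chosen with earlier results of these data known.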

Additional observations from a re-analysis of the deposited data

How the results depend on the processing

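The summed share of the 5 members depended on the denominator. It was 0.124 ± 0.0335% of sense reads (SD, n = 2), 0.0554% of all listed reads, 0.160% without Mir99a, and 0.0683% with reads of several places added. With edgeR's exact test at a coefficient of variation of 10% the members higher in replicate 2 fell from 3 to 0, all called genes from 142 to 3 and those higher in replicate 2 from 70 to 2. At 20% all 3 counts were 0, with 20 of 717 genes and 0 members under an unadjusted 0.05. The log2 ratios stayed at 0.46 for Mir10a, 0.62 for Mir10b and 0.60 for Mir196b, since only the test differed. Over the other scalings, pseudocounts, filter and count column, the ratio ranged from 0.46 to 0.50 for Mir10a, 0.60 to 0.65 for Mir10b and 0.44 to 0.63 for Mir196b, with adjusted p in the exact binomial test of at most 2.71e-36, 2.65e-35 and 0.0164. The ratio of Mir196a-2 ranged from 0.10 to 1.52, and depth limits it to no statement. A ratio between libraries cannot be had without either replicate.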
